A study of Mus musculus with 18 samples.

Results

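Messenger RNA for 62 splicing factor and spliceosome protein genes was followed in mouse brains of 3 genotypes. The 62 genes were those of 18193 with a probe set on the array whose only gene symbol began with Hnrnp, Hnrp, Srsf, Sfrs, Sf3a, Sf3b, Snrp, U2af or Prpf. They comprised 19 hnRNP genes, 10 SR protein genes, 9 SF3A and SF3B genes, 9 Snrp genes, 3 U2af genes and 12 Prpf genes. Each gene was described by its probe set of highest mean log2 signal over all 18 arrays, here called the brightest, and the 95 other probe sets above the filter on low signal served as a check. The mean level was thus used in choosing the probe sets, while the differences between genotypes were not. All 62 brightest probe sets passed the filter, 41 genes had several probe sets past it and 21 had 1, and 17 further probe sets of these genes lay under it. A further 18 probe sets listed for several genes, a splicing gene among them, were not used.

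Introns are removed from pre-mRNA by the spliceosome, which assembles from small nuclear ribonucleoproteins (snRNPs), each an RNA with a ring of Sm proteins and its own specific proteins. The U1 snRNP marks the donor splice site, U2AF and the SF3A and SF3B complexes of the U2 snRNP mark the acceptor site and the branch point, and the tri-snRNP with its Prpf proteins brings the catalytic core. SR proteins mostly promote the use of nearby sites and hnRNP proteins often oppose it, and both classes help to set the many neuron-specific splicing choices for which the brain is known.

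The arrays held whole brain RNA from C57BL/6 mice aged 8 weeks, with 3 female and 3 male samples in each genotype, labelled wild type, ERalphaKO or ERbetaKO after estrogen receptor alpha (gene Esr1) or beta (gene Esr2). The labels give no further allele, treatment or control line, and do not say whether each sample came from its own animal, so the tests weigh differences only against the scatter among these samples, which may be technical. The question put to these genes was whether their transcripts differed between the genotypes. The single Esr2 probe set went against its label: its signal was 271 ± 98.0 (SD, n = 6) in ERbetaKO-labelled arrays and 28.7 ± 11.4 in wild type (two-sided exact permutation p = 0.00216). The brightest Esr1 probe set gave 129 ± 21.6 in ERalphaKO-labelled arrays and 143 ± 35.9 in wild type (two-sided exact permutation p = 0.442). The 2 other Esr1 probe sets were higher, against the label, at 230 ± 52.3 and 65.0 ± 20.6 in ERalphaKO-labelled arrays and 141 ± 50.6 and 38.6 ± 16.4 in wild type (two-sided exact permutation p = 0.0173 and 0.0455). The weaker of the 2 lay near or under the 25th percentile of all signals, 63.6, with little room above background. The part of each receptor gene that was disrupted is not given, so none of these probe sets is known to read it, and every direction here rests on the labels.

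Several measures that were not of splicing moved with genotype or between arrays. The descriptions of the ERalphaKO-labelled samples share a tag that those of the other samples lack, and whatever it marks cannot be told apart from that genotype. The Purkinje cell gene Pcp2, a measure of how much cerebellum a sample held, varied between 117 and 10790.3, and 7 arrays had less than 500 (2 wild type, 2 ERalphaKO-labelled and 3 ERbetaKO-labelled). The mean log2 level of 8 neuron markers was 12.50 to 12.78 in ERalphaKO-labelled arrays and 12.81 to 13.17 in wild type, without overlap, and 1 of the 8 passed as lower. For the 5 endothelial markers tested it was 9.20 to 9.35 against 9.38 to 9.51, with 1 lower, and 2 of 8 microglia and 1 of 8 astrocyte markers were lower there too. In ERbetaKO-labelled arrays the 12 cerebellar markers had a median log2 difference from wild type of -0.87, with none past the test (0 of 12), and 1 of 8 astrocyte, 2 of 7 oligodendrocyte, 1 of 8 microglia and 1 of 5 endothelial markers were lower. The ratio of the 3' to the 5' control probe set of Actb, a measure of RNA quality, averaged 1.20 ± 0.0209 (SD, n = 6) for wild type, 1.28 ± 0.0786 for ERalphaKO-labelled and 1.48 ± 0.182 for ERbetaKO-labelled samples. Its lowest ERbetaKO-labelled value, 1.34, lay above the highest of wild type, 1.23. The part of these measures in the results was not tested beyond the refits given with the calls.

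In ERalphaKO-labelled brains 4 splicing genes rose and 2 fell. Snrpc of the U1 snRNP, the SR protein gene Srsf3, the hnRNP gene Hnrnph2 and Prpf8 of the catalytic core rose, by 0.29 to 0.39 on the log2 scale. Hnrnpl and the U2 snRNP gene Sf3a2 fell, by 0.81 and 0.35. The 6 calls were 9.68% of the 62 genes, against 6.7% of all 13072 genes tested (3.07% higher and 3.63% lower), and the other 56 did not pass the test (limma, Benjamini-Hochberg over all genes, threshold 0.05). The median difference was 0.03 over the splicing genes and -0.03 over all genes. In 7 of them, the 6 calls and Srsf4, knockout and wild type values did not overlap, against 4.65% of all genes. In bulk tissue, fewer cells of a type and less RNA per cell cannot be told apart.

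In ERbetaKO-labelled brains 1 splicing gene rose and 6 fell. Sf3b3, a scaffold subunit of the U2 snRNP, rose by 1.20, the largest difference from wild type among the 62 genes in either knockout. Srsf2, Prpf40b, Hnrnpd, Hnrnpul1, Srsf4 and Hnrnph1 fell, by 0.25 to 0.37. The 7 calls were 11.3% of the 62 genes, against 7.5% of all genes tested (2.91% higher and 4.58% lower), and 55 did not pass. The median difference was -0.04 over the splicing genes and 0.01 over all genes. Values did not overlap with wild type for 4 genes, Hnrnpd, Sf3b3, Srsf2 and Srsf4, against 4.06% of all genes. Scaling the arrays to a common median in place of a common trimmed mean moved the median of all genes to -0.12 and the called splicing genes to 15 of 62 (14.3% of all genes), and then 7.15% of all called genes were higher, in place of 38.9%. The plot of log2 differences by family shows both comparisons for each gene, with Sf3b3 and Hnrnpl farthest from 0.

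**Figure D1:**
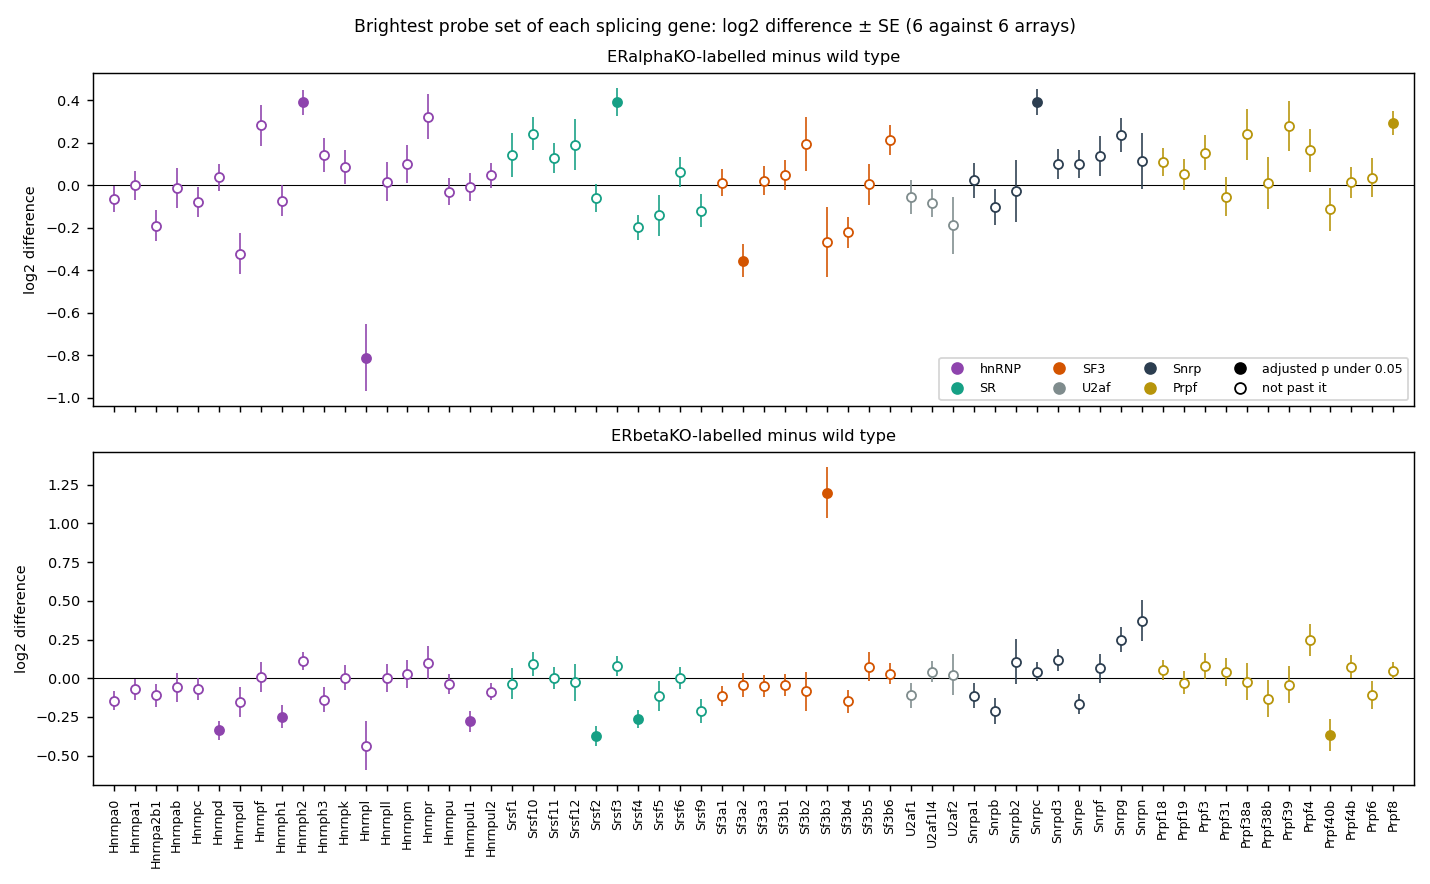
Log2 difference from wild type of the brightest probe set of each of the 62 splicing genes, grouped by family along the x axis, in ERalphaKO-labelled (top) and ERbetaKO-labelled (bottom) brains. Points are limma estimates from 6 against 6 arrays, bars are ± 1 SE and filled points passed an adjusted p of 0.05. Most points lie near 0, with Hnrnpl at -0.81 in the top panel and Sf3b3 at 1.20 in the bottom panel.

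Estrogen receptors bind DNA at pairs of the element GGTCA, so the 250 bases before the annotated start of these genes were searched for it on both strands. Promoter sequences from RefSeq (GRCm38.p6) matched 55 of the 62 genes by entrez gene identifier. The element occurred in 21 of the 55 genes, 38.2%, and in 38.4% of 27025 genes with a window of that length. A pair facing inward with 3 bases between occurred in 0 of 75 windows of splicing genes and in 0.0639% of 32851 windows. A match is a run of letters and not a measured binding site, and its absence covers these windows only. Of the 13 genes that passed in either knockout, 8 held the element and 5 did not, Hnrnph2, Hnrnpl, Prpf40b, Sf3a2 and Srsf2. The windows of the genes with the largest rise and fall, Sf3b3 and Hnrnpl, and of Srsf3 and Snrpc, which with Hnrnph2 and Prpf8 rose in ERalphaKO-labelled brains, are given below 5' to 3', with GGTCA, or TGACC where it lies on the other strand, in capitals. The Srsf3 window held the element as a direct repeat, those of Snrpc and Sf3b3 held it once, and that of Hnrnpl did not hold it.
Sf3b3, chr8:110846804-110847053, minus strand: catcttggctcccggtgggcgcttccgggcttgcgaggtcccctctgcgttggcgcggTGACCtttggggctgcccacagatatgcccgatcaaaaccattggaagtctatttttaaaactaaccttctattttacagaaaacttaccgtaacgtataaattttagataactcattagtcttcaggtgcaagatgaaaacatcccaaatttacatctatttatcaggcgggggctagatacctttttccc
Hnrnpl, chr7:28810640-28810889, plus strand: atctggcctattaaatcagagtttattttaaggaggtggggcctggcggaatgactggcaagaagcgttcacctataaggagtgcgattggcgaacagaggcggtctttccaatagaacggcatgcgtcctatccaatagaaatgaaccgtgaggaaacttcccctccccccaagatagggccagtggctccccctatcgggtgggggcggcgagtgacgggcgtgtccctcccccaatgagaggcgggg
Srsf3, chr17:29032410-29032659, plus strand: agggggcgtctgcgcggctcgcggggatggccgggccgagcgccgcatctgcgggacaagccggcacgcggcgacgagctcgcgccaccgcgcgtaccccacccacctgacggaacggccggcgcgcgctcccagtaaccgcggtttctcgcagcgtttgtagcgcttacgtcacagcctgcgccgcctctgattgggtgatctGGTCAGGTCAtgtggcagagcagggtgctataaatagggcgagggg
Snrpc, chr17:27839837-27840086, plus strand: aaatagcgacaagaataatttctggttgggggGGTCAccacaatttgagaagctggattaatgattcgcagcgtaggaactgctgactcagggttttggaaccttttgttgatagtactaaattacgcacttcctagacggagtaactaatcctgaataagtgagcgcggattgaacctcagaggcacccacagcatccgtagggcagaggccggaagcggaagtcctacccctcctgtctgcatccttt

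Among the Snrp genes, which encode Sm ring proteins and proteins specific to U1 or U2, 1 of 9 rose in ERalphaKO-labelled brains and none passed (0 of 9) in ERbetaKO-labelled brains. Snrpc encodes the U1 protein that steadies pairing with the donor site. Its lowest, median and highest signals were 1235, 1311 and 1413 in wild type, 1556, 1767 and 1975 in brains labelled ERalphaKO, and 1239, 1357 and 1477 in those labelled ERbetaKO. Every ERalphaKO-labelled array lay above every other array. The difference from wild type was 0.39 ± 0.060 (SE, limma adjusted p = 0.00207). Its second probe set lay under the filter, and averaging both gave a difference of -0.034. Snrpn, an imprinted gene for an Sm protein made mainly in neurons, had signals of 245 to 399 in wild type and 355 to 602 in ERbetaKO-labelled arrays, which overlapped, and did not pass (0.37 ± 0.13, limma adjusted p = 0.0952). Snrpb, which encodes the counterpart of that protein in other tissues, stood at 2103 ± 373, 1938 ± 117 and 1797 ± 226 (SD, n = 6) in wild type, then ERalphaKO-labelled, then ERbetaKO-labelled arrays and passed in neither knockout (limma adjusted p = 0.508 and 0.127). Signals of different probe sets do not rank these genes by level. Snrpn was read by 1 probe set alone, and the part of its transcripts which that probe set reads is not known.

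The U2af genes, whose products read the polypyrimidine tract and the acceptor site, did not pass in either knockout (0 of 3 each). U2af2, the large subunit, was at 1984 ± 380 in wild type, 1726 ± 286 in ERalphaKO-labelled and 2010 ± 348 (SD, n = 6) in ERbetaKO-labelled arrays. Its differences were -0.19 ± 0.13 and 0.02 ± 0.13 (SE). U2af1l4, a relative of the small subunit, was at 930 ± 50.7, 875 ± 66.9 and 962 ± 93.0 in the same order, with differences of -0.08 ± 0.067 and 0.04 ± 0.067.

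The SF3A and SF3B genes held the largest rise. Wild type signals of Sf3b3 were 727, 1814 and 1394 in females and 676, 909 and 1266 in males. Those of ERalphaKO-labelled arrays ran from 808 to 989, and those of ERbetaKO-labelled arrays from 2387 to 2592. The ERbetaKO-labelled values thus lay above all others and close together, while the wild type values were spread over more than the whole ERalphaKO-labelled range. The difference from wild type was 1.20 ± 0.16 (SE, limma adjusted p = 0.000919), a 2.30-fold change, and 1.01 in females and 1.39 in males. Sf3b3 also had the largest residual SD of the 62 genes, 0.320 on the log2 scale against a median of 0.130. In ERalphaKO-labelled brains the difference was -0.27 ± 0.16 and did not pass.

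The second probe set of Sf3b3 did not follow the first. Its signals were 284 to 321 in wild type, 349 to 490 in ERalphaKO-labelled and 248 to 424 in ERbetaKO-labelled arrays. It was higher in ERalphaKO-labelled brains, by 0.36 ± 0.10 (SE, limma adjusted p = 0.0373), and its ERbetaKO-labelled difference was 0.12 ± 0.10 (adjusted p = 0.466). Of 9 tested genes among the 5 nearest protein-coding neighbours of Sf3b3 on each side, 1 passed in ERbetaKO-labelled brains, Mtss2, which was lower by 0.66 on the log2 scale.

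Sf3a2, an SF3A subunit that helps to seat the U2 snRNP, had signals of 2728, 3034 and 3568 (lowest, median and highest) in wild type and of 1971, 2401 and 2679 in ERalphaKO-labelled arrays. The groups did not overlap, and the difference was -0.35 ± 0.077 (SE, limma adjusted p = 0.0150). In ERbetaKO-labelled arrays the signals were 2640.2, 2964 and 3256, a difference from wild type of -0.05 that did not pass. Its second probe set was also lower in ERalphaKO-labelled brains, by 0.28 ± 0.082 (adjusted p = 0.0416). The other 7 SF3 genes passed in neither knockout. Sf3b1, whose product touches the branch point and is the family's most often mutated member in human blood cancers, was at 3314 ± 229, 3439 ± 409 and 3208 ± 171 (SD, n = 6) in wild type, then ERalphaKO-labelled, then ERbetaKO-labelled arrays. Sf3a3 was at 604 ± 73.7, 611 ± 33.7 and 582 ± 80.4.

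Of the 10 SR protein genes, Srsf3 rose in ERalphaKO-labelled brains and Srsf2 and Srsf4 fell in ERbetaKO-labelled brains. Srsf3 encodes the smallest SR protein, which also takes part in mRNA export. Its lowest, median and highest signals were 1774, 1827 and 2055 in wild type, 2199.6, 2413 and 2850.5 in ERalphaKO-labelled and 1682, 1984 and 2169 in ERbetaKO-labelled arrays. All ERalphaKO-labelled values lay above the rest, by 0.39 ± 0.065 over wild type (SE, limma adjusted p = 0.00341). Its 6 probe sets were all higher in ERalphaKO-labelled brains, by 0.14 to 0.41, and 4 of them passed. In ERbetaKO-labelled brains the 6 differed from wild type by -0.01 to 0.14 and none passed (0 of 6).

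Srsf2, a nuclear speckle protein that recognises exonic enhancers, had signals of 3868, 4150.2 and 4900 (lowest, median and highest) in wild type and of 2922, 3214 and 3773 in ERbetaKO-labelled arrays. The groups did not overlap, and the difference was -0.37 ± 0.066 (SE, limma adjusted p = 0.00462). Its 3 other probe sets did not pass, at -0.15, 0.16 and 0.60, and the mean over the 4 gave 0.060. Srsf4, a long SR protein, ranged from 2106 to 2574 in wild type and from 1724 to 1999.5 in ERbetaKO-labelled arrays, again without overlap, a difference of -0.27 ± 0.058 (adjusted p = 0.0139). Its ERalphaKO-labelled values, 1743 to 2104, also lay below all wild type values, but the difference of -0.20 ± 0.058 missed the threshold in the fit over genes (adjusted p = 0.0520). It passed in 5 of 15 alternatives, among them the fit over all probe sets (adjusted p = 0.0497). Srsf5 and Srsf12, which encode an activator and an SR-like repressor, passed in neither knockout, with differences of -0.14 and 0.19 in ERalphaKO-labelled and -0.11 and -0.03 in ERbetaKO-labelled brains.

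Of the 19 hnRNP genes, 1 rose and 1 fell in ERalphaKO-labelled brains and 3 fell in ERbetaKO-labelled brains. Hnrnpl, which binds CA-rich RNA and controls many brain exons, had the largest fall. Its signals in wild type females were 916, 1111 and 1299.6, and in wild type males 1153, 1187 and 1166. In ERalphaKO-labelled females they were 397, 401 and 909, and in males 673, 676 and 829. All 6 lay below the 6 wild type values, the closest being 909 against the wild type minimum of 916. The difference was -0.81 ± 0.16 (SE, limma adjusted p = 0.00817), a 1.75-fold change.

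ERbetaKO-labelled signals of Hnrnpl ran from 625 to 992 and overlapped both other groups. Their difference from wild type, -0.44 ± 0.16, did not pass (limma adjusted p = 0.10). The second Hnrnpl probe set lay under the filter, and averaging both reduced the ERalphaKO-labelled difference to -0.25. Of 7 tested neighbours of Hnrnpl among the 5 on each side, 0 passed in either knockout.

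Hnrnph2, an X-linked gene whose product binds runs of guanines, had signals of 2291, 2440.1 and 2590.0 (lowest, median and highest) in wild type and of 2894, 3284 and 3333 in ERalphaKO-labelled arrays. The groups did not overlap, and the difference was 0.39 ± 0.057 (SE, limma adjusted p = 0.00175). In ERbetaKO-labelled arrays it ranged from 2511 to 2919.6, a difference of 0.11 that did not pass. Hnrnph1, its close relative, had signals of 4054 to 5385 in wild type and 3675 to 4321 in ERbetaKO-labelled arrays, which overlapped. That fall of 0.25 ± 0.073 only just passed (adjusted p = 0.0485), missed the threshold in 16 of the 18 fits that each left out 1 array, and stood beside a second probe set that was higher by 0.29 ± 0.085 (adjusted p = 0.0470).

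Hnrnpd, which binds AU-rich elements and speeds mRNA decay, had signals of 2029.7, 2158 and 2325 (lowest, median and highest) in wild type, 2168, 2198 and 2359 in ERalphaKO-labelled and 1526, 1687 and 1987 in ERbetaKO-labelled arrays. Every ERbetaKO-labelled array lay below every other array, and the difference from wild type was -0.34 ± 0.064 (SE, limma adjusted p = 0.00595). Its 2 other probe sets did not follow, at 0.01 and 0.00, and the mean over the 3 gave -0.11, which did not pass. Hnrnpul1, a relative of the nuclear scaffold protein Hnrnpu, ranged from 2225 to 2729.8 in wild type and from 1885 to 2280.5 in ERbetaKO-labelled arrays, with a slight overlap, and differed by -0.28 ± 0.067 (adjusted p = 0.0205). Hnrnpk, a poly-C binding protein gene, was at 7785 ± 637 in wild type, 8279 ± 912 in ERalphaKO-labelled and 7818 ± 863 (SD, n = 6) in ERbetaKO-labelled arrays and passed in neither.

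Of the 12 Prpf genes, Prpf8 rose in ERalphaKO-labelled brains and Prpf40b fell in ERbetaKO-labelled brains. Prpf8 encodes the large protein that holds the catalytic RNAs. Its lowest, median and highest signals were 2274, 2641 and 2839 in wild type, 2903, 3283 and 3398 in ERalphaKO-labelled and 2543, 2707 and 2818 in ERbetaKO-labelled arrays. The ERalphaKO-labelled values lay above all others, by 0.29 ± 0.056 over wild type (SE, limma adjusted p = 0.00705), and Prpf8 had the smallest residual SD of the 62 genes, 0.0744 on the log2 scale. Prpf40b, a U1-associated protein gene, ranged from 609.8 to 753 in wild type and from 360.3 to 614 in ERbetaKO-labelled arrays. These overlapped, and the difference of -0.37 ± 0.10 (adjusted p = 0.0377) missed the threshold in 7 of the 18 fits that each left out 1 array. Prpf19, a ubiquitin ligase of the spliceosome, and Prpf3 of the tri-snRNP passed in neither knockout, with differences of 0.05 and 0.15 in ERalphaKO-labelled and -0.03 and 0.08 in ERbetaKO-labelled brains.

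**Figure D2:**
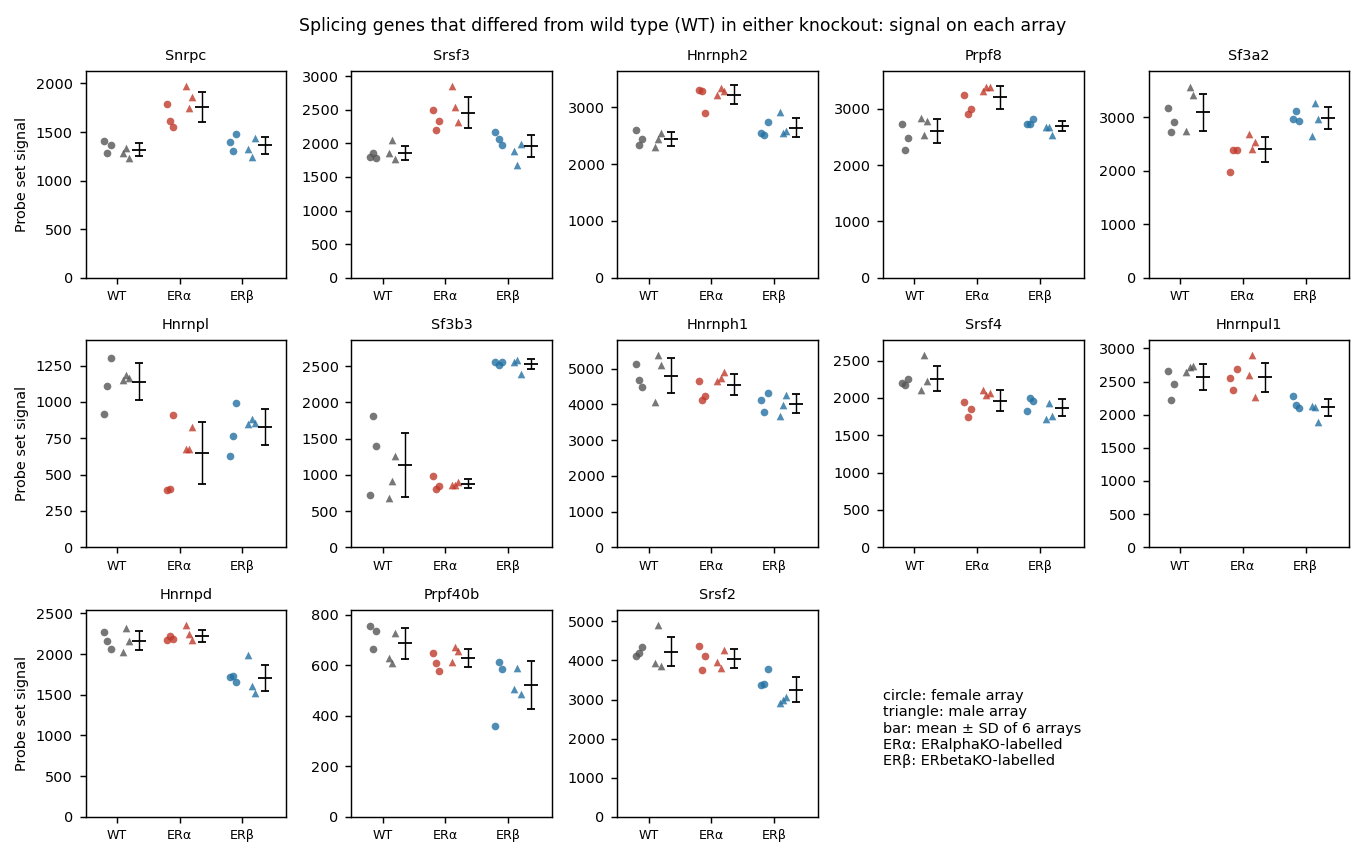
Probe set signal (linear, y axis from 0) of the 13 splicing genes that passed in either knockout, on each of the 18 arrays. Circles are female and triangles male arrays, and bars are the mean ± SD of 6 arrays. The 6 ERbetaKO-labelled values of Sf3b3 lie between 2387 and 2592, above all other arrays, and the Hnrnpl values of ERalphaKO-labelled arrays are spread from 397 to 909.

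The calls were refitted separately for cerebellar content and for the Actb ratio. Without the 7 arrays of low Pcp2, an alternative chosen after the data were seen, none of the 6 ERalphaKO-labelled calls passed (0 of 62, and 75 of all genes, 0.574%), while each kept its direction. Hnrnpl was then at -0.71, Sf3a2 at -0.36, Prpf8 at 0.31, Snrpc and Hnrnph2 at 0.39 and Srsf3 at 0.42, with limma adjusted p of 0.0572 to 0.123. With a score of the cerebellar markers as a covariate, on all 18 arrays, 14 splicing genes passed in place of 6 (11.4% of all genes). With the Actb ratio as a covariate all 6 passed (3.84% of all genes). There the Actb covariate left Prpf40b past the threshold (1 of 62, and 1.16% of all genes), at -0.64, with Sf3b3 at 1.17 and a limma adjusted p of 0.0502. The Actb ratio did not overlap between ERbetaKO-labelled and wild type arrays, so that refit cannot cleanly separate RNA quality from genotype. Without the arrays of low Pcp2, Sf3b3, Prpf40b and Hnrnpd passed (3 of 62, and 1.80% of all genes), at 1.35, -0.53 and -0.40.

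The other probe sets of the same genes gave a different count. Of the 95, 18 rose and 4 fell in ERalphaKO-labelled brains, in 16 genes. These were 23.2%, against 9.17% (6.35% higher and 2.83% lower) of 10007 probe sets other than the brightest of any gene. Without the arrays of low Pcp2, 8 of the 95 passed, where 0.574% of all genes did in the fit over genes. After scaling to a common median 14 did, where 3.53% of all genes did. The shares over all other probe sets were not taken in these settings. In ERbetaKO-labelled brains 1 rose and 2 fell, 3.16% against 7.65% (4.58% higher and 3.08% lower). Over all 157 probe sets, brightest included, 29 passed in ERalphaKO-labelled brains, among them the brightest of Srsf4, which missed in the fit over genes, where 9.07% of 27022 did (5.48% higher and 3.59% lower). They lay in 21 genes, 15 with only rises, 4 with only falls and 2 with both. In ERbetaKO-labelled brains 10 passed, in 9 genes, where 7.82% of all did (4.23% higher and 3.59% lower). The array files do not say which part of a transcript each probe set reads, and suffixes _s_at and _x_at mark probe sets that may also read other transcripts. The genes in the rest of this account of probe sets were chosen after their values were seen.

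The hnRNP genes Hnrnpu and Hnrnpf held the largest of these rises. Hnrnpu encodes a nuclear scaffold protein that binds pre-mRNA and chromatin. Its probe set 1450849_at had signals of 2258, 2549.5 and 2719 (lowest, median and highest) in wild type, 3499, 5019 and 5231 in ERalphaKO-labelled and 1988, 2184 and 2579.97 in ERbetaKO-labelled arrays. All ERalphaKO-labelled values lay above all others, and the difference from wild type was 0.91 ± 0.086 (SE, limma adjusted p = 1.63e-05), a 1.88-fold change. Its brightest probe set, 1423050_s_at, was at 5799 ± 430, 5672 ± 277 and 5637 ± 367 (SD, n = 6), a difference of -0.03 ± 0.065. Of the 5 Hnrnpu probe sets, 1450849_at alone passed. The signals of Hnrnpf probe set 1437099_x_at ran from 1413 to 2424.5 in wild type and from 2761 to 4149 in ERalphaKO-labelled arrays, without overlap. That difference was 0.90 ± 0.13 (SE, adjusted p = 0.000816), and the brightest Hnrnpf probe set was at 0.28 ± 0.097 and did not pass. Of the 4 Hnrnpf probe sets 1 passed, and the lowest difference was -0.08.

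Several other genes also had a dimmer probe set that passed while the brightest did not. For Hnrnpa2b1, a carrier of RNA along dendrites, the 3 dimmer probe sets rose by 0.39 to 0.46 and the brightest was at -0.19. For Hnrnpa1, a repressor of many exons, the dimmer probe set rose by 0.56 ± 0.11 (SE, limma adjusted p = 0.00584) and the brightest was at 0.00. Prpf4b, a kinase of the tri-snRNP, and Srsf11 each had a dimmer probe set that rose by 0.46, while their brightest were at 0.01 and 0.13. Other probe sets of these genes went as low as -0.09 and -0.37, without passing. The rising Srsf11 probe set was weak, at 126 to 302 in wild type. Srsf6 had a rise of 0.32 in a dimmer probe set, with the brightest at 0.06. Srsf1 had 1 of 0.29, with the brightest at 0.14 and all its probe sets between 0.13 and 0.29. Hnrnpk and Sf3b1 were split among their dimmer probe sets, with 0.34 and -0.39 for Hnrnpk and 0.26 and -0.45 for Sf3b1, all past the threshold. Of the Sf3b2 probe sets, 1456040_at fell in both knockouts, by 0.26 ± 0.063 and 0.35 ± 0.063 (adjusted p = 0.0167 and 0.00458), while the brightest passed in neither.

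**Figure D3:**
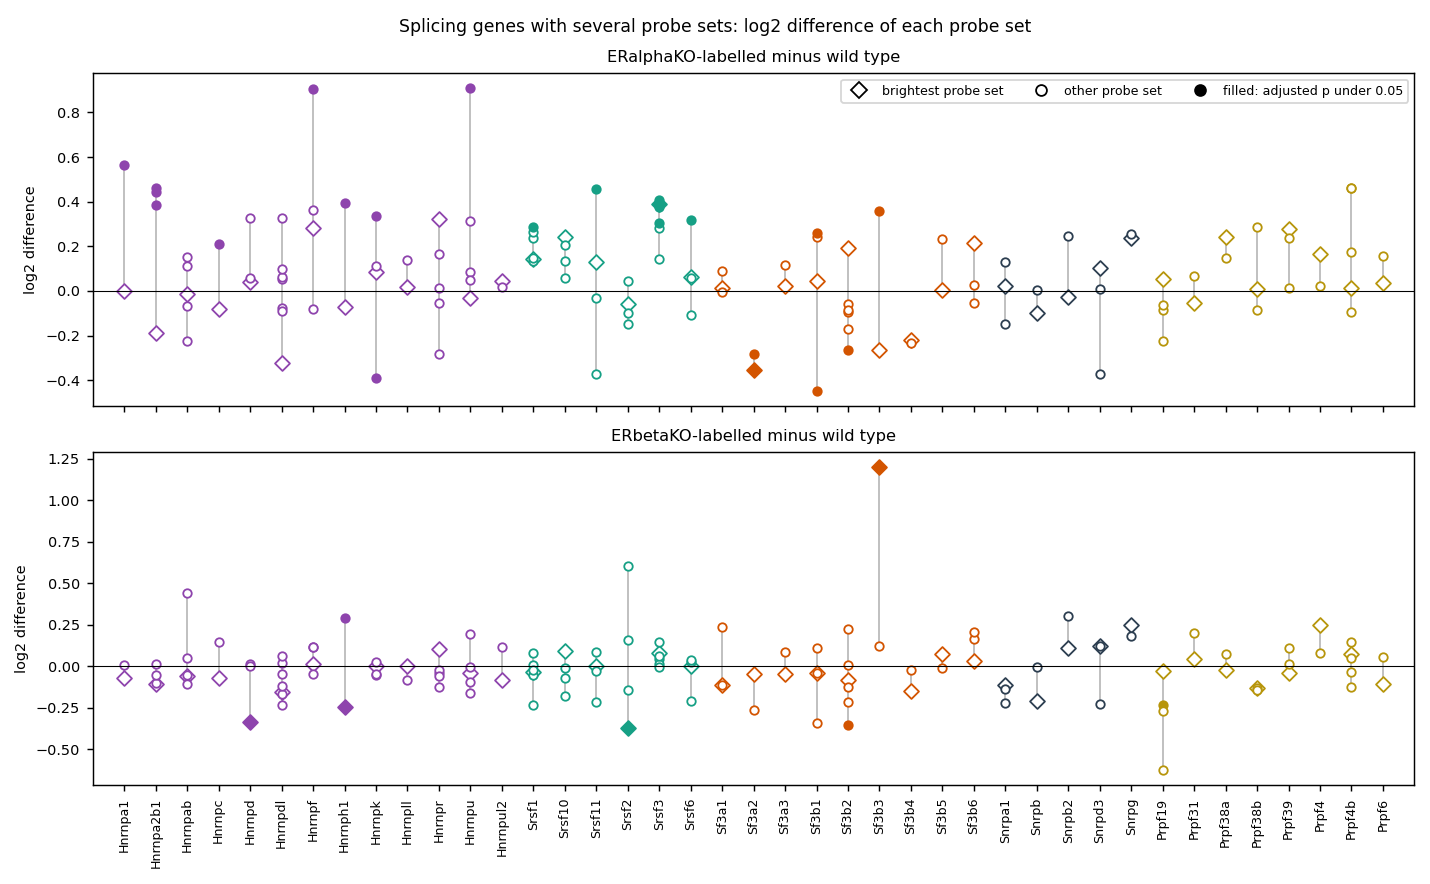
Log2 difference from wild type of every probe set past the filter for the 41 splicing genes that have several, in ERalphaKO-labelled (top) and ERbetaKO-labelled (bottom) brains. Diamonds are the brightest probe set of a gene, circles its others, and filled symbols passed an adjusted p of 0.05. In the top panel the circles of Hnrnpu at 0.91 and Hnrnpf at 0.90 stand far above their diamonds at -0.03 and 0.28.

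**Figure D4:**
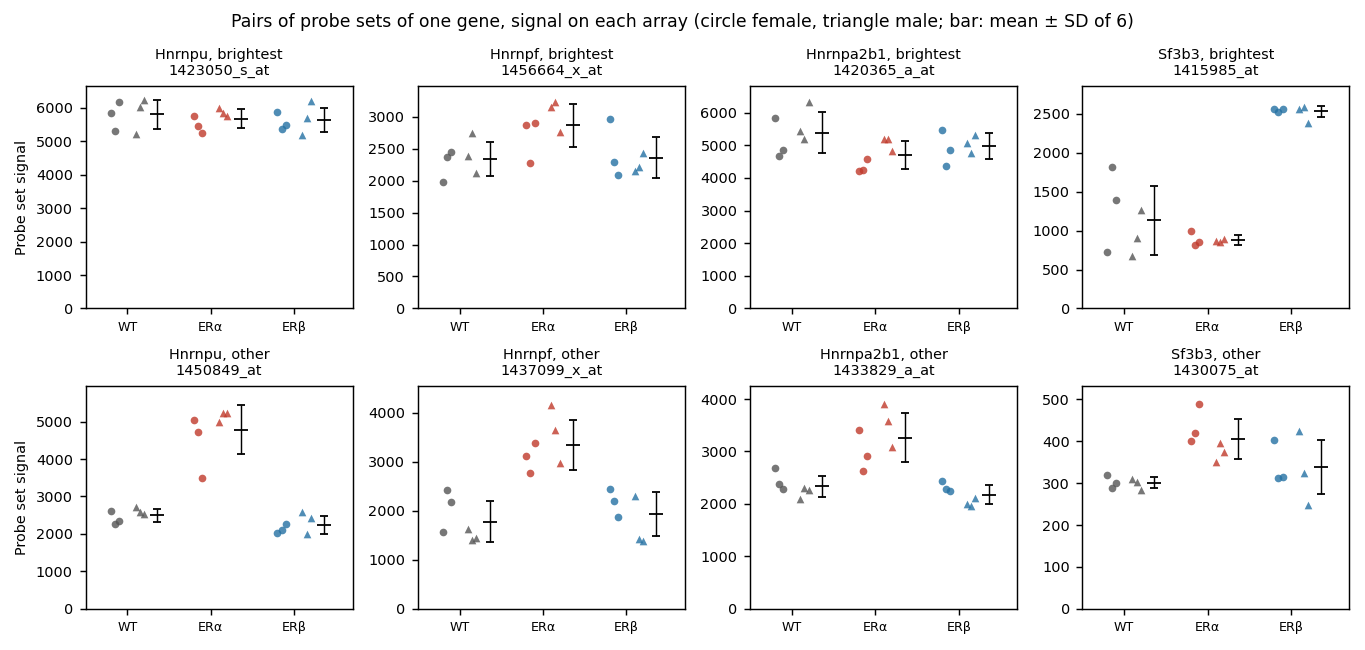
Signal on each array (linear, y axis from 0) of the brightest (top row) and another probe set (bottom row) of Hnrnpu, Hnrnpf, Hnrnpa2b1 and Sf3b3. The lower probe set is the dimmer one of smallest adjusted p in ERalphaKO-labelled brains. Circles are female and triangles male arrays, and bars are the mean ± SD of 6 arrays. The ERalphaKO-labelled values of the lower Hnrnpu probe set, 3499 to 5231, clear all others, and the pair of Sf3b3 probe sets differ in which genotype is high.

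Set directly against each other, the knockouts differed in 11 splicing genes, with 2 higher and 9 lower in ERbetaKO-labelled than in ERalphaKO-labelled brains. These were 17.7% of the 62, against 15.4% of all genes tested (9.11% higher and 6.27% lower), and the median was -0.08 against 0.02 over all genes. This comparison shares its arrays with those against wild type, so its values stand beside them and add no independent support. Sf3b3 was higher by 1.46 ± 0.16 (SE, limma adjusted p = 0.000303) and Sf3a2 by 0.31 ± 0.077 (adjusted p = 0.0166). Hnrnpd, Snrpc, Srsf3 and Srsf2 were lower by 0.38, 0.35, 0.31 and 0.31. Hnrnph3, a relative of Hnrnph1, ranged from 870.4 to 1198.5 in ERalphaKO-labelled and from 699.3 to 933 in ERbetaKO-labelled arrays, which overlapped. Its difference was -0.28 ± 0.081 (adjusted p = 0.0289), and missed the threshold in 5 of the 18 fits that each left out 1 array. Hnrnph2, Hnrnpul1, Prpf8 and the Sm protein gene Snrpe, named after its value was seen, were lower by 0.28, 0.27, 0.24 and 0.27.

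The values lay wholly apart between the knockouts for 5 of the 62 genes, against 5.85% of all genes. Among the 95 other probe sets 1 was higher and 20 were lower in ERbetaKO-labelled brains, against 14.4% of probe sets other than the brightest (7.13% higher and 7.24% lower). Of all 157, 32 passed, where 15.4% of 27022 did (8.98% higher and 6.46% lower). With the Actb ratio as a covariate 5 of the 62 genes passed (6.67% of all genes). Scaling to a common median made it 19 (18.6% of all genes), with 23.0% of all called genes higher in place of 59.3%.

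The test of a difference between the sexes in the response gave no call among the splicing genes (0 of 62) or among all 13072 genes in any of the 3 comparisons (limma, adjusted over all genes), so it says nothing particular to these genes. At an unadjusted p under 0.05 there were 3 genes for ERalphaKO-labelled, 5 for ERbetaKO-labelled and 6 for the comparison between knockouts, against 5.15%, 3.38% and 6.66% of all genes. The smallest p-values belonged to U2 snRNP and SR genes. Sf3b2, which anchors the U2 snRNP near the branch point, differed from wild type by 0.65 in females and -0.26 in males labelled ERalphaKO (limma adjusted p = 0.855). Sf3b6, whose product touches the branch point adenosine, differed by 0.41 in females and 0.02 in males labelled ERalphaKO, and by 0.27 and -0.21 in those labelled ERbetaKO. Sf3a3 differed by 0.20 in females and -0.30 in males labelled ERbetaKO. Srsf5 differed between the knockouts by 0.34 in females and -0.28 in males (limma adjusted p = 0.597).

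Other spliceosome genes, from a list of 73 of which 68 were tested, included further members of the same complexes. In ERalphaKO-labelled brains 9 rose and 2 fell, 16.2% against 6.7% of all genes. Without ERalphaKO-labelled male replicate 2, 4 of the 68 passed, and 3.03% of all genes. In ERbetaKO-labelled brains 2 rose and 5 fell, 10.3% against 7.5%. Without wild type male replicate 2, 4 of the 68 passed, and 4.76% of all genes. The medians were 0.00 and -0.01. Tra2a, an SR-like splicing activator, had the largest rise in ERalphaKO-labelled brains, from 812, 877 and 973 (lowest, median and highest) in wild type to 1154, 1376 and 1513. The groups did not overlap, and the difference was 0.59 ± 0.067 (SE, limma adjusted p = 0.000290). Its relative Tra2b rose by 0.42 and Rbm39, an SR-like coactivator, by 0.37. Averaged over the probe sets of each gene, Tra2a, Tra2b and Rbm39 were at 0.32, 0.052 and 0.26 and none passed (limma adjusted p = 0.0678, 0.775 and 0.0842). Lsm7, of the ring on U6 RNA, fell by 0.52 ± 0.084 (adjusted p = 0.00325), and its gene is among the 5 nearest to Sf3a2 on 1 side.

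In ERbetaKO-labelled brains Snrnp70, the U1 protein that binds the stem of U1 RNA, fell from 1294, 1453 and 1757 (lowest, median and highest) in wild type to 919.5, 1059 and 1176, without overlap. That difference was -0.47 ± 0.078 (SE, limma adjusted p = 0.00322). Puf60, a U2AF-like factor, fell by 0.45 and Srrm2, a large protein of nuclear speckles, by 0.51, while the helicase gene Ddx42 rose by 0.37. Averaged over its probe sets Srrm2 was at -0.28 and did not pass. Zmat2 of the tri-snRNP rose by 0.23 (adjusted p = 0.0414), which no longer passed in 13 of the 18 fits that each left out 1 array. Between the knockouts 4 were higher and 12 lower in ERbetaKO-labelled brains, 23.5% against 15.4% of all genes, among them Tra2a, Rbm39 and the helicase gene Ddx39b, lower by 0.53, 0.30 and 0.38, and Zmat2, higher by 0.42.

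Regulators of alternative splicing outside these families were listed as well. Of 47, 45 were tested, and in ERalphaKO-labelled brains 3 rose and 1 fell, 8.89% against 6.7% of all genes. Clk1 and Clk4, kinases that phosphorylate SR proteins, rose by 0.47 ± 0.075 and 0.44 ± 0.074 (SE, limma adjusted p = 0.00299 and 0.00348). Clk1 signals were 1401 to 1773 in wild type and 2050.7 to 2598 in ERalphaKO-labelled arrays, without overlap. Khdrbs1, the RNA-binding protein Sam68, rose by 0.29, and Ptbp1, a repressor of neuronal exons, fell by 0.56 ± 0.12 (adjusted p = 0.0109). In ERbetaKO-labelled brains 1 fell, 2.22% against 7.5%: Ewsr1, an RNA-binding protein of the FET family, by 0.49. Averaged over its probe sets Ewsr1 was at -0.20 and did not pass. Between the knockouts 2 were higher and 8 lower in ERbetaKO-labelled brains, 22.2% against 15.4%, with Clk1, Clk4, Khdrbs1 and Tial1, a binder of U-rich RNA, lower by 0.41, 0.35, 0.38 and 0.33. Without the arrays of low Pcp2 the counts were 1 regulator and 2 other spliceosome genes in ERalphaKO-labelled brains, and 0 and 1 in ERbetaKO-labelled brains.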

How the data were processed

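The authors deposited a linear intensity for each probe set on 18 Affymetrix mouse arrays, and MAS5 is named in the submitters' processing notes, with its version not given in the sources used here. Every column deposited by the authors has a 2% trimmed mean of 500.002, so all arrays share 1 scale. The table gives no detection calls, and the number of arrays limits the precision.

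Control probe sets (64 of 45101) were left out. Symbols came from the platform annotation, updated through the entrez identifier to RefSeq GRCm38.p6. Signals were taken as log2(signal + 63.63), the 25th percentile, and differences on this scale understate the change of weak genes. For 18193 genes the probe set of highest mean log2 value was kept, and 13072 at or above the 40th percentile (log2 7.58) were tested. The model had 6 group means and used limma 3.58.1 (R 4.3.3), a trend of variance with intensity, 12 residual degrees of freedom and Benjamini-Hochberg adjustment over all genes at 0.05. Each comparison averages the female and the male difference. All 27022 probe sets past the filter were fitted likewise. Receptor probe sets were tested by exact permutation. The fit was tested on simulated data. Figures used matplotlib 3.10.9.

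The splicing genes, the gene lists and the tests were chosen with earlier results of these data known. Named genes were, by rule, up to 8 called genes each way per knockout, 5 each way between knockouts, the highest and lowest mean of each family, up to 2 with the smallest interaction p, Snrpn, up to 4 called genes per other list and comparison, and Esr1 and Esr2. Promoter windows came from RefSeq, and Hnrnpll, Hnrnpul2, Prpf18, Sf3b4, Sf3b5, Snrpb and U2af2 had none. Alternatives covered the pseudocount, scaling, filter, probe set choice, trend, array weights, samples fitted, a replicate block, covariates and each array left out. The labels do not say whether replicate numbers pair the samples, and the main model fitted no pairing. Of 18 same-numbered pairs, 6 correlated above 0.1 (r from -0.40 to 0.43), and the 36 other pairs had r from -0.52 to 0.39. These correlations cannot settle whether same-numbered samples were handled together.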

Additional observations from a re-analysis of the deposited data

Results flagged for a closer look

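Among 132 groups of 6 arrays checked for the genes above, 9 held an array far from the other 5, and chance gives about 1 in 20. Wild type male replicate 2 stood high in 3 genes: Srsf3, at 2055 against 1774 to 1863 on the other arrays, Srsf4, at 2574 against 2106 to 2259, and Snrpb, at 2809.9 against 1705 to 2109.5. The Srsf3 rise in ERalphaKO-labelled brains and the Srsf4 fall in ERbetaKO-labelled brains both passed without that array. Wild type female replicate 2 was low for the kinase gene Clk4, at 474 against 542 to 574.

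ERalphaKO-labelled male replicate 1 was high for Snrpn, at 416 against 318 to 354, and low for Ptbp1, at 1638 against 1785 to 1869.7. ERalphaKO-labelled female replicate 3 was low for Hnrnph2, at 2894 against 3213 to 3333, and still lay above all wild type arrays.

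ERbetaKO-labelled male replicate 3 was the lowest of its group for Sf3b3, at 2387 against 2520.2 to 2592, in a group whose values were close together. ERbetaKO-labelled female replicate 3 was high for Ewsr1, at 1672 against 1331 to 1425.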

How the results depend on the processing

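Of 15 alternatives besides left-out arrays, the one limited to arrays of strong Pcp2 was chosen after the data were seen. Counts are for splicing genes, their other probe sets, other spliceosome genes and splicing regulators, in that order. For ERalphaKO-labelled against wild type (6, 22, 11 and 4) array weights gave 13, 17 and 8 for the splicing genes, spliceosome genes and regulators, the cerebellar score as a covariate 14 and 8 for splicing genes and regulators, strong Pcp2 only 0, 8, 2 and 1, common median scaling 14 probe sets and 7 spliceosome genes, and no filter, the mean over probe sets and the Actb covariate 7 spliceosome genes each. For ERbetaKO-labelled against wild type (7, 3, 7 and 1) median scaling gave 15 genes, 9 probe sets and 4 regulators, the mean over probe sets 4 genes, the Actb covariate 1, 0, 1 and 0, strong Pcp2 only 3, 1, 1 and 0, and array weights 8 probe sets and 2 regulators. No filter, no trend, only the groups compared and the replicate block each gave 1 probe set. Between the knockouts (11, 21, 16 and 10) median scaling gave 19 genes and 37 probe sets, array weights 21, 34 and 25, the Actb covariate 5, 8, 5 and 4, and the mean over probe sets 10 spliceosome genes. The replicate block gave 7, 7 and 12 splicing genes in the 3 comparisons. Leaving out each array in turn gave 6 to 11, 15 to 27, 4 to 12 and 4 to 5, then 5 to 7, 1 to 4, 4 to 7 and 1 to 2, then 10 to 14, 17 to 23, 9 to 18 and 7 to 12, and 0 interactions throughout. The ERalphaKO-labelled spliceosome count was 4 to 7 without any one of wild type female replicates 2 and 3, wild type males 1 to 3, ERalphaKO-labelled females 2 and 3 and ERalphaKO-labelled males 1 and 2. In those fits 3.03% to 5.27% of all genes passed. The spliceosome count between knockouts was 9 without ERalphaKO-labelled male 2 and 10 without ERalphaKO-labelled female 3 (9.05% and 10.2% of all genes). In ERbetaKO-labelled brains it was 4 without wild type male 2 (4.76% of all genes). Without ERbetaKO-labelled female replicate 1 there were 11 splicing genes in ERalphaKO-labelled and 2 regulators in ERbetaKO-labelled brains (8.28% and 7.34% of all genes). The ERbetaKO-labelled probe set count was 1 without wild type female replicate 1 or 2, wild type male replicate 2 or 3, ERalphaKO-labelled male replicate 2, or ERbetaKO-labelled male replicate 1 or 2. Averaging all probe sets of a gene turned Snrpc in ERalphaKO-labelled brains to -0.034, Srsf2 in ERbetaKO-labelled brains to 0.060 against wild type and 0.12 between knockouts, Hnrnph1 to 0.021 and Ddx39b between knockouts to 0.073. The mean includes probe sets that differ in direction or lie under the filter. Otherwise the cause was not tested. All counts not named here stayed within 1.5 times the reported one. Neither the brightest Esr1 probe set nor that of Esr2 changed its verdict under any alternative (Esr1 difference -23.3 to -4.85, Esr2 215 to 264 with 1 array left out). Signals near the filter have little room above background, which limits what could be seen for weak probe sets.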
